A study of Homo sapiens with 15 samples.

Results

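Triacylglycerol is the neutral fat that cells store in lipid droplets, and 7 genes of its synthesis, storage and release were followed by RNA-seq in HEK293T, a widely used human cell line of embryonic kidney origin. They are AGPAT1, PLPP5, DGAT1, DGAT2, PLIN2, PLIN3 and PNPLA2, taken by gene symbol from a table of 13243 genes, in which all 7 have a row. They were chosen by their place in the pathway with earlier results of these data known, among them the log2 fold changes of DGAT2 and PLPP5 against DMSO. The values used in that choice are those contrasts with DMSO. Their changes against DMSO are therefore given as a description, without p-values. How many were called there is counted once, beside the share of all genes, and nothing is supported with it. The cells were kept for 4 h with DMSO, the vehicle, or with IXA1, IXA4, IXA6 or thapsigargin (Tg). The IXA compounds are labelled as activators of IRE1/XBP1s, the branch of the unfolded protein response in which the ER sensor IRE1 splices XBP1 mRNA. Tg, labelled as an activator of the whole response, inhibits the pump that fills the endoplasmic reticulum (ER) with calcium. No genotype differed between groups, the labels state no dose, and they speak of independent experiments. Whether libraries of a group came from separate cultures is not said further, so p-values measure the spread between these libraries.

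Counts of 14 libraries were used, 2 of them with IXA1 and 3 in each other group. IXA1 replicate 3 is also listed as a sample, and 1 count column matches no sample title. Whether that column is IXA1 replicate 3 is not known, and it was not used. The 14 libraries had totals of 14160321 to 15726742. Of 4 reporters of the unfolded protein response, HSPA5, which encodes the ER chaperone BiP, rose 1.56- to 1.63-fold with the IXA compounds and 10.1-fold with Tg. DNAJB9, an ER co-chaperone, rose 2.23- to 2.45-fold and 6.67-fold, and XBP1 itself 1.78- to 2.05-fold and 3.70-fold. DDIT3, which encodes CHOP and is best known as a target of the PERK branch, rose 1.38-fold with IXA6 (adjusted p = 0.0353) and 19.3-fold with Tg. It was at 1.22-fold with IXA1 (adjusted p = 0.308) and 1.15-fold with IXA4 (adjusted p = 0.658). All 8 listed markers of the line were measured, at a summed 700.2 to 798 CPM (reads relative to library size after TMM scaling) per library. They were uneven. By group mean VIM was at 351 to 411 CPM, and NEFL, NEFM, KRT18 and CDH2 lay between 16.1 and 186. KRT8 was at 4.52 to 5.86, LHX1 at 1.97 to 3.50 and PAX2 at only 0.95 to 1.56 CPM. Of markers of cells that store much lipid, 2 of 8 adipocyte genes (LIPE and PPARG, 30.7 to 38.7 CPM summed), 0 of 8 hepatocyte genes and 1 of 5 steroidogenic genes (STAR, at most 1.72 CPM) were measured. In bulk RNA, fewer cells that express a gene and less RNA per cell cannot be told apart.

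In the glycerol phosphate pathway, acyl chains are added to glycerol 3-phosphate at the ER. AGPAT1 makes phosphatidic acid, phosphatases of the lipin and PLPP families remove phosphate to give diacylglycerol, and DGAT1 and DGAT2 add the last acyl chain. DGAT1 and DGAT2 belong to unrelated protein families, and DGAT2 can also act at the droplet surface. Perilipins such as PLIN2 and PLIN3 coat the droplets, and PNPLA2 (ATGL) is the lipase that starts their breakdown. In mouse liver, XBP1 has been described as an activator of Dgat2 and other lipogenic genes.

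The promoter table from RefSeq (GRCh38.p14) held entries for 4 of the 7 genes, PLIN2, PLIN3, PNPLA2 and AGPAT1, each running from 250 bases before to 50 after an annotated start. Sequences of 3 are shown, read along the gene's strand. PLIN2 and PLIN3 are a pair of coat genes that differed in opposite directions between Tg and the IXA compounds. Against DMSO, PLIN3 libraries lay lower with Tg, while those of PLIN2 overlapped. Among the genes tested between treatments further on, AGPAT1 is the only gene called different between IXA compounds. The build of these sequences is not that of the counts, and the start used in these cells is not known. Capitals mark ACGTG, a core shared by binding sites of XBP1 and other factors, and CCAAT, a common promoter box, on either strand (ATTGG is CCAAT read from the other strand).
PLIN2 (chr9:19127443-19127742, minus strand): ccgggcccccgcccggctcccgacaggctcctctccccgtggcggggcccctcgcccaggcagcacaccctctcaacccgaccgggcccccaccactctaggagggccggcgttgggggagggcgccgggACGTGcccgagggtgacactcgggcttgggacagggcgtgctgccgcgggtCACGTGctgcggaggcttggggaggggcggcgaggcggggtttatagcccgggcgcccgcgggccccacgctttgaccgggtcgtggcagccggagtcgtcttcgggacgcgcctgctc
PLIN3 (chr19:4867618-4867917, minus strand): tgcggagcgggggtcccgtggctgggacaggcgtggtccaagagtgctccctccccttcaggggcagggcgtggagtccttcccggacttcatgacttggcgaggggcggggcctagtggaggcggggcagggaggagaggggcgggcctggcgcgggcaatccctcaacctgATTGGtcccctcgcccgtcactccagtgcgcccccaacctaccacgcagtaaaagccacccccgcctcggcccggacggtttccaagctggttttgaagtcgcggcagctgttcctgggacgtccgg
AGPAT1 (first of 5 annotated starts, chr6:32178059-32178358, minus strand): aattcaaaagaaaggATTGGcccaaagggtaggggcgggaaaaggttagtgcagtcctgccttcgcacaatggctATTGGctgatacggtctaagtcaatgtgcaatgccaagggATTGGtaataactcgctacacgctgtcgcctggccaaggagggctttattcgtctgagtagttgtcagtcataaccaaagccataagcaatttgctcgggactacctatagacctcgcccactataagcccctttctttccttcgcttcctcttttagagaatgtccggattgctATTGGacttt
The PLIN2 window held ACGTG 3 times, 2 of them the overlapping strands of a CACGTG palindrome, and the PLIN3, PNPLA2 and AGPAT1 windows held none. Of 34796 distinct promoter windows of this length, 21.4% held ACGTG and 7.2% CACGTG on either strand. CCAAT was found 4 times in the AGPAT1 window shown, but 0, 1, 1 and 0 times in the windows of its other annotated starts. It was found 1 time in the PLIN3 window, and 34.6% of windows held it. The ER stress element (ERSE) was in none of the 8 windows of these genes and in 0.0776% of all. These matches describe letters in a window and do not show binding.

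DGAT2 stood at 8.83, 10.2 and 9.88 CPM in the 3 DMSO libraries, from 138 to 158 reads. With IXA1 it was at 4.15 and 3.51 CPM, with IXA4 at 4.12, 3.80 and 4.55 CPM, and with IXA6 at 3.51, 3.69 and 4.26 CPM. Every IXA library lay below every DMSO library, and the libraries of the 3 IXA compounds overlapped. With Tg it was at 1.16, 0.801 and 0.407 CPM, which rest on 17, 11 and 6 reads. All Tg libraries lay below all IXA libraries. DGAT2 transcript was thus 2.51-fold lower than DMSO with IXA1 (log2 fold change -1.33 ± 0.19 SE), 2.32-fold lower with IXA4 (-1.21 ± 0.16) and 2.52-fold lower with IXA6 (-1.33 ± 0.17). With Tg it was 12.1-fold lower (-3.60 ± 0.22 SE), with a 95% interval of -4.06 to -3.14 on the log2 scale. Among all 13243 genes ranked from the largest fall, DGAT2 was at place 15 with IXA1, 6 with IXA4, 4 with IXA6 and 3 with Tg. The nearest measured genes on the chromosome, MAP6 and UVRAG, were at 0.61 and 28.9 CPM with DMSO. UVRAG was at 0.0028 to 0.09 on the log2 scale over the 4 treatments. MAP6 was at -0.48, 0.23, 0.46 and -0.18 in the order IXA1, IXA4, IXA6, Tg, and neither gene passed the test with any treatment.

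DGAT1, the other enzyme of the same step, was at 17.4, 18.8 and 17.6 CPM with DMSO and at 18.2 and 17.1 CPM with IXA1. It was at 16.4, 19.9 and 18.3 CPM with IXA4, 19.5, 18.7 and 16.8 CPM with IXA6, and 19.7, 17.3 and 19.3 CPM with Tg. The 5 groups overlapped, and the log2 fold changes against DMSO ran from -0.02 with IXA1 to 0.06 with Tg, each with an SE of at most 0.10. DGAT1 overlaps HSF1, the heat shock factor gene, in the annotation. HSF1 was at 61.5 CPM with DMSO and changed by -0.22 (IXA6) to 0.16 (IXA1) on the log2 scale, so shared reads cannot be told apart where the counting did not use strand.

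**Figure D1:**
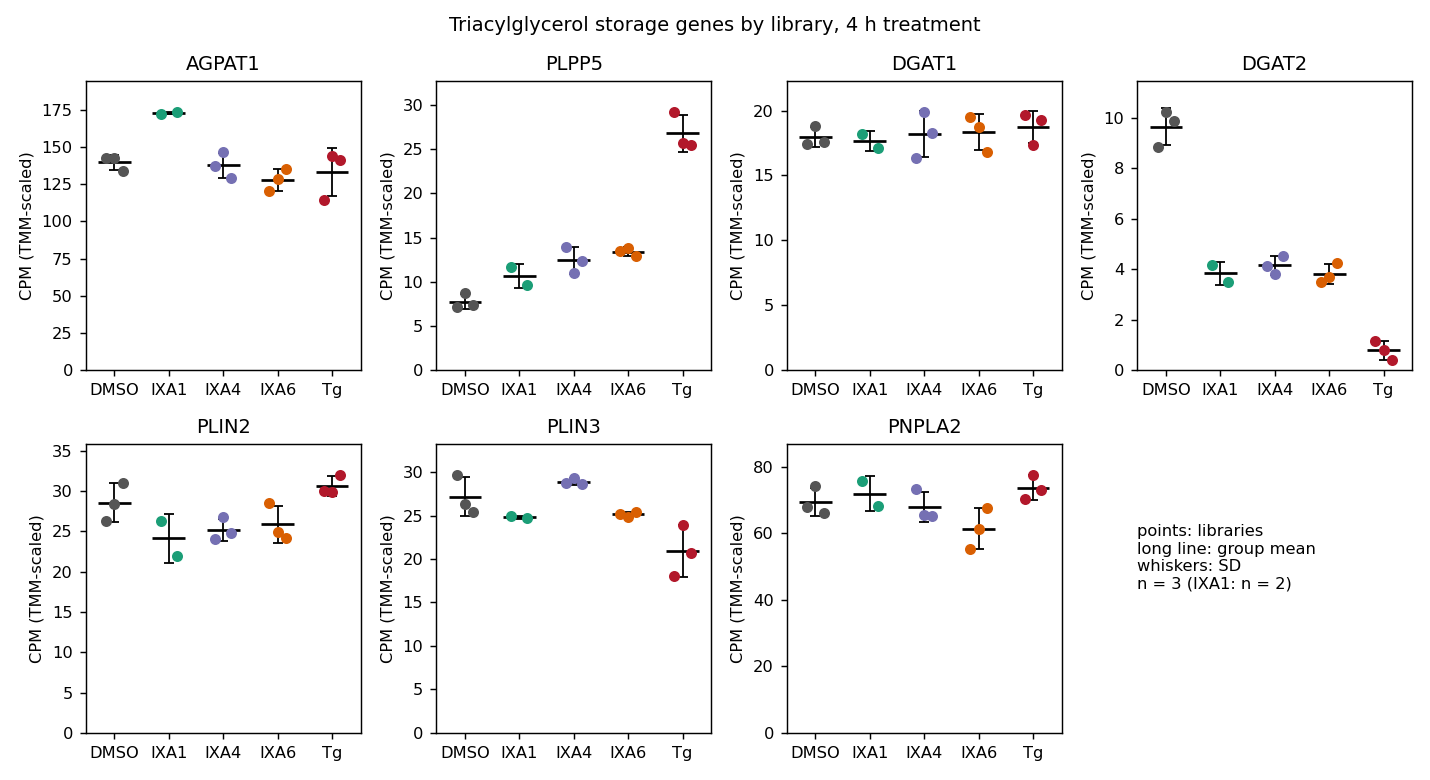
CPM of the 7 genes (y axes from 0, a scale per gene) in each library by treatment (x axis); points are libraries, lines are means and whiskers SD, with n = 3 (n = 2 for IXA1). DGAT2 drops from 9.65 CPM on average with DMSO to about 4 with the IXA compounds and 0.789 with Tg, PLPP5 climbs to 26.8 with Tg, and DGAT1 stays between 16.4 and 19.9.

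Set against each other within a library, DGAT2 reads made up 34.9% ± 1.2 of the reads of both enzymes with DMSO (SD, n = 3). The share was 17.8% ± 1.1 with IXA1 (n = 2), 18.7% ± 2.3 with IXA4 and 17.3% ± 2.6 with IXA6 (n = 3 each). With Tg it was 4.02% ± 1.8 (n = 3), from 2.07% to 5.57%. The exact 95% binomial interval of the lowest Tg library, 6 of 290 reads, was 0.763% to 4.45%, and that of the highest, 17 of 305, was 3.28% to 8.77%. The lowest DMSO library, 138 of 410 reads, had 29.1% to 38.5%. These intervals cover counting error only, and the shares are of reads, not corrected for transcript length. Per kilobase of exon, DGAT2 was at 3.93 and DGAT1 at 4.84 CPM with DMSO, and at 0.322 and 5.05 CPM with Tg.

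**Figure D2:**
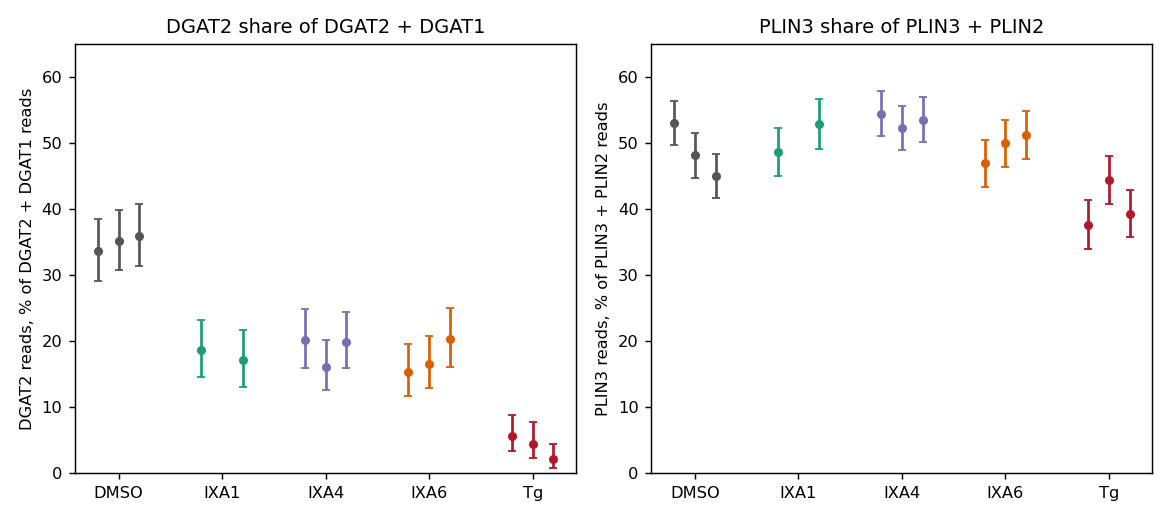
Share of reads (%) held by DGAT2 among DGAT1 and DGAT2 reads (left) and by PLIN3 among PLIN2 and PLIN3 reads (right), per library and treatment, with exact 95% binomial intervals. The DGAT2 share lies at 33.7% to 36.0% with DMSO, 15.3% to 20.2% with the IXA compounds and 2.07% to 5.57% with Tg, whereas the PLIN3 share spans 37.6% to 54.4%.

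Of the enzymes upstream of diacylglycerol, PLPP5, a phosphatase of the family that acts on phosphatidic acid and related lipid phosphates, was at 7.17, 8.74 and 7.38 CPM with DMSO. It was at 11.7 and 9.68 CPM with IXA1, at 13.9, 10.97 and 12.4 CPM with IXA4, at 13.5, 13.9 and 12.9 CPM with IXA6 and at 29.2, 25.7 and 25.5 CPM with Tg. All treated libraries lay above all DMSO libraries, and all Tg libraries above all IXA libraries. The fold against DMSO was 1.37 with IXA1 (log2 fold change 0.46 ± 0.13 SE), 1.60 with IXA4 (0.68 ± 0.11), 1.73 with IXA6 (0.79 ± 0.11) and 3.45 with Tg (1.79 ± 0.11). PLPP5 overlaps DDHD2, a phospholipase gene, in the annotation. DDHD2 was at 78.4 CPM with DMSO and moved by -0.0079 to 0.13 on the log2 scale. Here too, shared reads cannot be told apart where the counting did not use strand. WHSC1L1, on the other side, rose by 0.28 with Tg.

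AGPAT1, which makes phosphatidic acid, was the most abundant of the 7 per length. It was at 142, 143 and 134 CPM with DMSO and at 172 and 174 CPM with IXA1, above every library of the other groups. With IXA4 it was at 137, 146 and 129 CPM, with IXA6 at 120, 128 and 135 CPM and with Tg at 115, 144 and 141 CPM. These 3 groups overlapped the DMSO libraries. The log2 fold change against DMSO was 0.31 ± 0.08 SE with IXA1 and -0.02 ± 0.07, -0.13 ± 0.07 and -0.07 ± 0.07 with IXA4, IXA6 and Tg. Leaving out each library of the comparison in turn gave 0.28 to 0.32 for IXA1, and the call counted further on was lost each time. The authors' deposited table gave 0.25 for AGPAT1 with IXA1, and the libraries behind it are not stated. Its annotated neighbours EGFL8, which overlaps it, PPT2 and RNF5 changed with IXA1 by -0.08, 0.04 and 0.18. EGFL8 was at 3.27 CPM with DMSO, and the same limit on shared reads holds for it and AGPAT1.

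PLIN2, the droplet coat protein found in most cell types, was at 26.2, 28.4 and 31.0 CPM with DMSO. It was at 26.3 and 22.0 CPM with IXA1, 24.1, 26.7 and 24.8 CPM with IXA4, 28.5, 24.95 and 24.2 CPM with IXA6, and 29.96, 29.92 and 32.04 CPM with Tg. Each treated group overlapped the DMSO group. The log2 fold change was -0.24 ± 0.09 SE with IXA1, -0.18 ± 0.08 with IXA4, -0.14 ± 0.08 with IXA6 and 0.10 ± 0.08 with Tg. The authors' deposited table gave -0.16 for PLIN2 with IXA1.

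PLIN3, a perilipin that moves from the cytosol to newly formed droplets, was at 29.7, 26.3 and 25.4 CPM with DMSO. It was at 24.9 and 24.7 CPM with IXA1, 28.8, 29.4 and 28.6 CPM with IXA4, and 25.2, 24.9 and 25.4 CPM with IXA6. With Tg it was at 18.02, 23.95 and 20.7 CPM, and all Tg libraries lay below all others. With Tg it was thus 1.30-fold lower than with DMSO (log2 fold change -0.38 ± 0.08 SE). With the IXA compounds it was at -0.13 ± 0.09, 0.09 ± 0.08 and -0.11 ± 0.08 in the order IXA1, IXA4, IXA6. The IXA1 and IXA6 libraries lay below all DMSO libraries, and the IXA4 libraries overlapped them.

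PNPLA2, the triacylglycerol lipase, was at 68.1, 74.2 and 66.1 CPM with DMSO. It was at 75.7 and 68.2 CPM with IXA1, 73.2, 65.5 and 65.2 CPM with IXA4, 55.3, 61.4 and 67.7 CPM with IXA6, and 70.2, 77.7 and 73.2 CPM with Tg. All treated groups overlapped the DMSO group. The log2 fold changes were 0.05 ± 0.08 SE, -0.03 ± 0.07, -0.18 ± 0.07 and 0.09 ± 0.07 in the order IXA1, IXA4, IXA6, Tg.

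**Figure D3:**
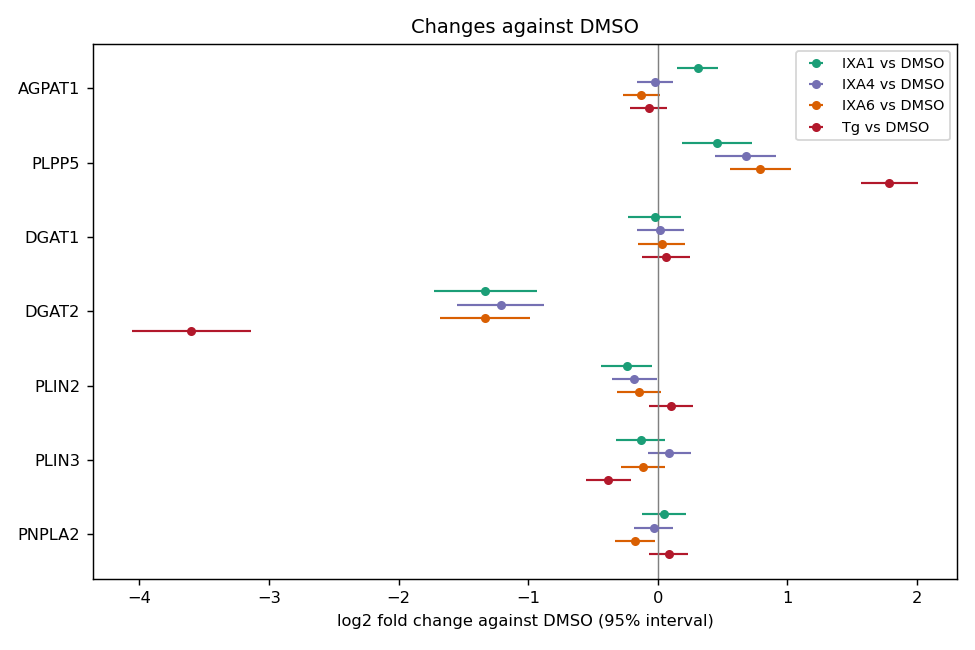
Log2 fold change against DMSO (x axis) of each gene (rows) with each treatment (colours); bars are 95% intervals from the fit of all groups. DGAT2 lies left of 0 with all 4 treatments and farthest with Tg at -3.60, PLPP5 lies right of 0, and the other genes lie within -0.38 to 0.31.

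Counted together, 2 of the 7 genes were past the threshold (an adjusted p of 0.05 over all genes) with IXA1 (DGAT2 lower, AGPAT1 higher), where 2.31% of all genes were, 0.491% lower and 1.82% higher. With IXA4 and with IXA6 2 were (DGAT2 lower, PLPP5 higher), where 0.8% and 2.29% of all genes were. Of all genes, 0.0831% were lower and 0.717% higher with IXA4, and 0.778% lower and 1.51% higher with IXA6. With Tg 3 were (DGAT2 and PLIN3 lower, PLPP5 higher), where 35.8% of all genes were, 17% lower and 18.8% higher. Nothing is read from these counts, since the choice of genes used these contrasts. Libraries did not overlap those of DMSO for 4 genes with IXA1, 2 with IXA4, 3 with IXA6 and 3 with Tg. Over all genes this held for 34.9%, 18.1%, 24% and 43.5%. The median log2 fold change of the 7 was -0.02, -0.02, -0.13 and 0.06 in the order IXA1, IXA4, IXA6, Tg. That of all genes was -0.0053, -0.0019, 0.0005 and -0.0077.

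Ordered by level per kilobase of annotated exon, an approximate scale since the gene models used in counting are not given, AGPAT1 came first with DMSO at 40.9 ± 1.5 CPM per kilobase (SD, n = 3). PNPLA2 followed at 28.6 ± 1.7, then PLIN2 at 12.4 ± 1.0 and PLIN3 at 11.6 ± 0.96, whose libraries overlapped. DGAT1 (4.84 ± 0.21), DGAT2 (3.93 ± 0.30) and PLPP5 (2.73 ± 0.30) came last, and each of these was separated from its neighbour in the order. With Tg, PLPP5 at 9.42 ± 0.73 CPM per kilobase stood beside PLIN3 at 8.95 ± 1.3, with overlapping libraries, and DGAT2 was last at 0.322 ± 0.15. With IXA4, PLPP5 at 4.37 ± 0.52 overlapped DGAT1 at 4.90 ± 0.47, and DGAT2 was last at 1.69 ± 0.15. Within families, AGPAT1 was above AGPAT2 (22.0), AGPAT5 (18.5), AGPAT3 (9.74) and AGPAT4 (3.03) with DMSO. PNPLA2 was above PNPLA3 (3.93) and PNPLA4 (3.55). PLPP5 was below PLPP6 (9.26), PLPP3 (5.52) and PLPP1 (4.91) and above PLPP4 (2.10) with DMSO, and with Tg it overlapped PLPP6 (9.79) and lay above PLPP1 (6.65) and PLPP3 (3.27).

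Each difference between 2 treatments equals the difference of their changes against DMSO. For DGAT2 and PLPP5, whose changes against DMSO were known when the genes were chosen, these differences are therefore given as a description with intervals and no p-value. For the other 5 genes they were tested with edgeR's quasi-likelihood test and adjusted over all 13243 genes within each of 6 comparisons. Contrasts against DMSO were also known when these 5 were chosen. Their p-values are thus not independent of the choice and describe these libraries only. Doses are unknown, so a difference holds for these cultures at the doses used.

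Between IXA compounds, the 95% intervals of the DGAT2 difference included 0 in every pair. The log2 difference was 0.0038 for IXA1 minus IXA6 (95% interval -0.43 to 0.43), -0.12 for IXA1 minus IXA4 (-0.54 to 0.31) and 0.12 for IXA4 minus IXA6 (-0.26 to 0.50). Differences of up to about 1.35-fold between IXA1 and IXA6 thus lie within the interval. PLPP5 was at -0.33 for IXA1 minus IXA6 (-0.59 to -0.08), -0.22 for IXA1 minus IXA4 (-0.48 to 0.04) and -0.11 for IXA4 minus IXA6 (-0.33 to 0.11).

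Of the 5 genes tested, AGPAT1 was the gene that differed between IXA compounds. Whether the unmatched column would change this was not tested. AGPAT1 was 1.35-fold higher with IXA1 than with IXA6 (log2 difference 0.43, 95% interval 0.28 to 0.59, adjusted p = 0.00166), and higher in each of the 2 IXA1 libraries than in each of the 3 IXA6 libraries. It was 1.26-fold higher with IXA1 than with IXA4 (0.33, 0.17 to 0.48, adjusted p = 0.021). With a minimum fold of 1.2, neither difference passed (adjusted p = 0.726 for IXA1 against IXA6). The difference from IXA6 held without any library of the pair. That from IXA4 was lost without IXA1 replicate 1 (adjusted p = 0.154), IXA1 replicate 2 (0.165), IXA4 replicate 1 (0.0609) or IXA4 replicate 3 (0.103). With AGPAT1 alone called, 1 of 7 genes differed between IXA1 and IXA4 and between IXA1 and IXA6, where 2.58% and 7.35% of all genes did. Of all genes, 1.9% were higher and 0.68% lower with IXA1 than with IXA4, and 4.53% higher and 2.82% lower with IXA1 than with IXA6. Libraries did not overlap for 2 of the 7 genes between IXA1 and IXA4, 3 between IXA1 and IXA6 and 1 between IXA4 and IXA6, beside 38.3%, 42% and 16.9% of all genes. Between IXA4 and IXA6, 0 of 7 differed by edgeR, DESeq2 or limma-voom and 1, PLIN3, at an unadjusted p below 0.05 (log2 difference 0.20, 0.03 to 0.37, adjusted p = 0.46). Over all genes 0% were called there by edgeR, with 1222 at an unadjusted p below 0.05 and 18 called by DESeq2. PNPLA2 was at 0.23 for IXA1 minus IXA6 (0.06 to 0.40, adjusted p = 0.0918), and passed without IXA6 replicate 3 (adjusted p = 0.0307).

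DGAT2 was lower with Tg than with each IXA compound. It was 4.82-fold lower than with IXA1 (log2 difference -2.27, 95% interval -2.83 to -1.71), 5.23-fold lower than with IXA4 (-2.39, -2.89 to -1.88) and 4.81-fold lower than with IXA6 (-2.27, -2.78 to -1.75). PLPP5 was 2.51-fold higher with Tg than with IXA1 (1.33, 1.09 to 1.57), 2.16-fold higher than with IXA4 (1.11, 0.90 to 1.32) and 2.00-fold higher than with IXA6 (1.00 on the log2 scale, with a fold interval of 1.73 to 2.30). DGAT1 was within 0.04 to 0.09 of its level with the IXA compounds, with adjusted p of 0.539 to 0.798 and 95% intervals that together run from -0.15 to 0.29.

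The coat genes differed in opposite directions between Tg and the IXA compounds. PLIN2 was higher with Tg than with IXA1 (log2 difference 0.34, adjusted p = 0.00678), IXA4 (0.28, adjusted p = 0.0104) and IXA6 (0.24, adjusted p = 0.0275). PLIN3 was lower, at -0.25 against IXA1 (adjusted p = 0.0463), -0.47 against IXA4 (adjusted p = 0.000114) and -0.27 against IXA6 (adjusted p = 0.0183). In every one of these pairs of groups the libraries did not overlap, as for 53.1%, 43.5% and 38.7% of all genes against IXA1, IXA4 and IXA6. In the same order, 17.9%, 18.4% and 16.8% of all genes were called higher with Tg and 15.9%, 16% and 14.2% lower. With a minimum fold of 1.2, PLIN2 passed against no IXA compound and PLIN3 against IXA4 only. Of the 6 calls, that of PLIN3 against IXA4 held without any library. PLIN2 lost the call against IXA1 without IXA1 replicate 2 (adjusted p = 0.171), against IXA4 without IXA4 replicate 1 or Tg replicate 3 (0.051 each), and against IXA6 without IXA6 replicate 2 (0.0991), IXA6 replicate 3 (0.119) or Tg replicate 3 (0.106). PLIN3 against IXA1 passed in 5 of 13 alternatives. It did not pass with DESeq2 (adjusted p = 0.0665), where 4 of the 7 genes were called, with a replicate block (0.0787), with the 2 groups alone (0.0991) or with a minimum fold of 1.2 (0.85). PLIN3 also lost this call without IXA1 replicate 1 (0.169), IXA1 replicate 2 (0.137), Tg replicate 1 (0.228) or Tg replicate 3 (0.0929), and against IXA6 without IXA6 replicate 3 (0.0501), Tg replicate 1 (0.124) or Tg replicate 3 (0.0524). As a share of the reads of both genes, PLIN3 held 48.8% ± 4.1 with DMSO and 40.4% ± 3.6 with Tg (SD, n = 3 each).

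AGPAT1 was lower with Tg than with IXA1 (log2 difference -0.38, 95% interval -0.53 to -0.22, adjusted p = 0.00043). That call was lost with a minimum fold of 1.2 (adjusted p = 0.159). AGPAT1 was at -0.05 against IXA4 (adjusted p = 0.623) and 0.06 against IXA6 (adjusted p = 0.567), where it passed without Tg replicate 1 (log2 difference 0.15, adjusted p = 0.0466). PNPLA2 was higher with Tg than with IXA6 (0.26, 0.11 to 0.41, adjusted p = 0.00916). This call was lost without IXA6 replicate 1 (adjusted p = 0.0656) and with a minimum fold of 1.2 (adjusted p = 0.944). In all, 5, 4 and 5 of the 7 genes differed between Tg and IXA1, IXA4 and IXA6, where 33.9%, 34.4% and 31% of all genes did. These counts include DGAT2 and PLPP5, so nothing is read from them. Libraries did not overlap for 5, 4 and 5 of them, beside 53.1%, 43.5% and 38.7% of all genes.

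**Figure D4:**
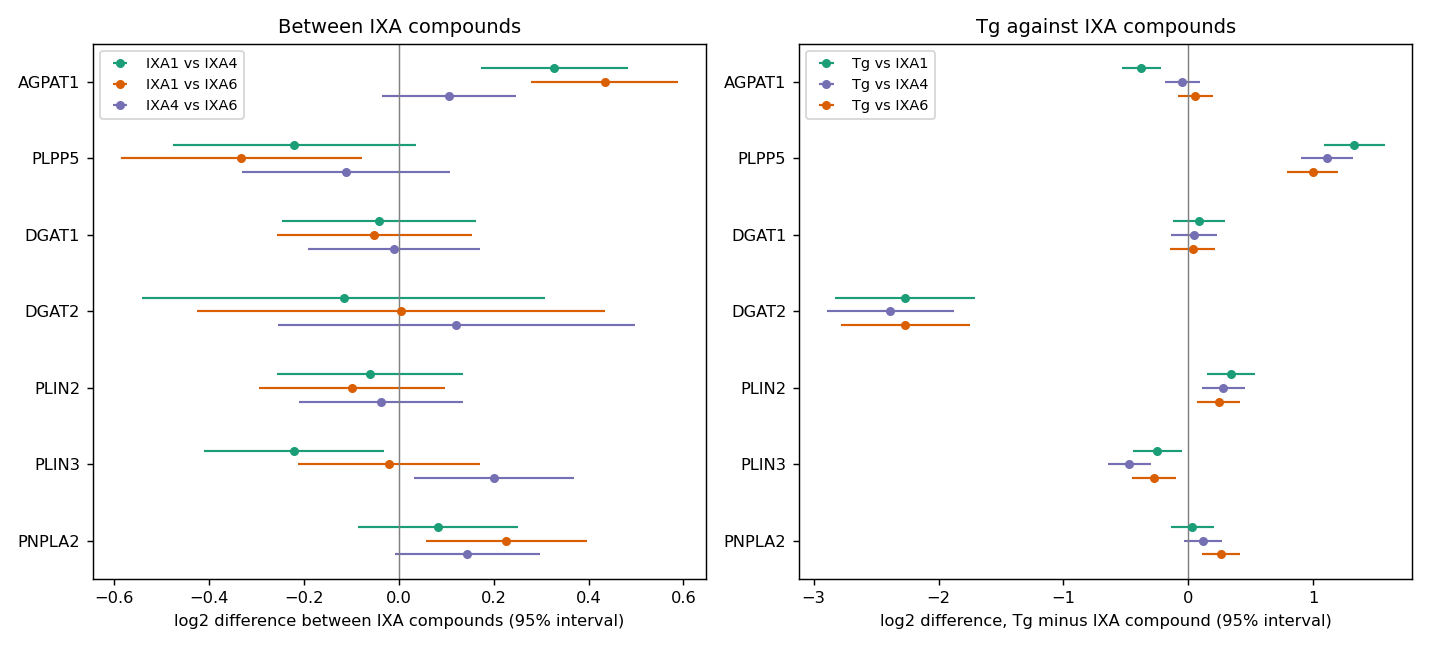
Log2 differences with 95% intervals (x axes, on different scales) for the 7 genes between IXA compounds (left) and for Tg minus each IXA compound (right). AGPAT1 lies right of 0 for IXA1 against IXA4 and IXA6, and DGAT2 lies between -2.39 and -2.27 for Tg against the 3 compounds.

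Around these genes, 129 others were listed from general knowledge of the pathways, with earlier results of these data known, and 110 were measured. They belong to triacylglycerol synthesis, droplets, lipolysis, fatty acid activation, the phospholipid branch, sterol esters and their transcription regulators. With IXA1, 0 of 110 passed edgeR's test over all genes, against 1 with DESeq2, 0 with limma-voom and 12 at an unadjusted p below 0.05. With IXA4 1 fell, and with IXA6 2 rose and 2 fell. These are 0%, 0.909% and 3.64% of those measured with IXA1, IXA4 and IXA6, beside 2.31%, 0.8% and 2.29% of all genes. At an unadjusted p below 0.05 with IXA1, 10.9% of the 110 stood beside 15.5% of all genes. With Tg 21 rose and 17 fell, which is 34.5% of those measured, beside 35.8% of all genes. Of all genes, 18.8% were higher and 17% lower with Tg, and the counts per list below stand beside these shares. The median log2 fold change of the 110 with Tg was 0.01, and -0.0077 for all genes.

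SREBF1, which encodes the lipogenic transcription factor SREBP-1, was the pathway gene called most often. It was at 39.6 ± 3.2 CPM with DMSO (SD, n = 3) and fell by 0.32 on the log2 scale with IXA4 (adjusted p = 0.0487) and by 0.32 with IXA6 (adjusted p = 0.0249). With IXA1 it was at -0.21 ± 0.09 SE (adjusted p = 0.22). With Tg it went up to 59.9 ± 3.9 CPM, a rise of 1.51-fold (0.60 ± 0.07 SE on the log2 scale, adjusted p = 7.44e-07). The IXA4 call was lost without any 1 of the 3 IXA4 libraries and without DMSO replicate 1 or 3, when 0 pathway genes passed. With IXA6, 2 pathway genes passed without IXA6 replicate 1 or any 1 DMSO library. With a minimum fold of 1.2, 0 pathway genes passed with IXA4 or IXA6, so both of these SREBF1 calls were lost. SREBF1 was 1.75-, 1.88- and 1.89-fold higher with Tg than with IXA1, IXA4 and IXA6 (largest adjusted p = 9.30e-08).

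Among the 20 other measured genes of triacylglycerol synthesis, none passed with an IXA compound by edgeR's test over all genes, and with Tg 4 rose and 5 fell. PLPP3, another lipid phosphate phosphatase, went from 18.2 ± 0.31 CPM to 10.8 ± 0.77 with Tg, 1.69-fold lower (-0.76 ± 0.10 SE on the log2 scale, adjusted p = 1.67e-06). GPAT3, an acyltransferase of the first step, was 1.57-fold higher (0.65 ± 0.14 SE, adjusted p = 0.000606). PLPP1 (0.44), LCLAT1 (0.32) and TMX1 (0.15) also rose, while AGPAT3 (-0.40), LPIN3 (-0.41), GPAT4 (-0.28) and AGPAT2 (-0.18) fell.

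Among 17 other measured droplet genes, 6 rose and 1 fell with Tg. The fall was in FITM2, an ER protein needed for droplets to form, which went from 7.10 ± 0.53 to 3.26 ± 0.40 CPM (2.18-fold lower, -1.12 ± 0.16 SE on the log2 scale, adjusted p = 5.02e-06). FITM2 was also lower with Tg than with IXA1, IXA4 and IXA6, at adjusted p of 0.000303, 1.33e-06 and 7.54e-05. HILPDA, a droplet protein that inhibits PNPLA2, rose by 0.39 (adjusted p = 0.000519) and RAB3GAP2 and RAB18 by 0.36 and 0.29.

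Among 16 other measured lipolysis genes, 4 rose and 2 fell with Tg. UBXN4, an ER partner of the ATPase VCP, rose by 0.37 with IXA6 (adjusted p = 0.000122) and by 0.52 with Tg (adjusted p = 3.86e-08), and VCP rose by 0.42 with Tg. Their best known role is in ER-associated protein degradation. With a minimum fold of 1.2, UBXN4 did not pass with IXA6. ABHD6, a monoacylglycerol lipase, fell by 0.41 with Tg.

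Of 15 fatty acid activation genes, 1 rose with IXA6, DBI, an acyl-CoA binding protein (0.25), and 2 rose with Tg, ACBD3 (0.72), a Golgi protein with an acyl-CoA binding domain, and ACSL4 (0.31), an acyl-CoA synthetase. Of 27 phospholipid genes, 1 fell with IXA6, the ethanolamine kinase gene ETNK2 (-0.27, adjusted p = 0.0312). With a minimum fold of 1.2, 0 pathway genes passed with IXA6, so DBI, ETNK2, UBXN4 and SREBF1 all lost that call. With Tg, 4 phospholipid genes rose and 4 fell. LPCAT4 (-0.56) and LPCAT1 (-0.48), acyltransferases that remodel phospholipids, had the largest falls, and ETNK2 was at -0.22. EPT1, which uses diacylglycerol to make phosphatidylethanolamine, rose by 0.43. Of 4 sterol ester genes none passed with any treatment by edgeR.

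Of 15 transcription regulators, 3 rose and 5 fell with Tg. CEBPB, a stress-responsive regulator also known from fat cell differentiation, went from 11.8 ± 0.61 CPM to 49.7 ± 3.9, 4.20-fold higher (2.07 ± 0.08 SE on the log2 scale, adjusted p = 8.67e-16). RXRA (-0.51), CEBPA (-0.46), PPARD (-0.26), PPARA (-0.25) and FOXO1 (-0.21) fell.

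**Figure D5:**
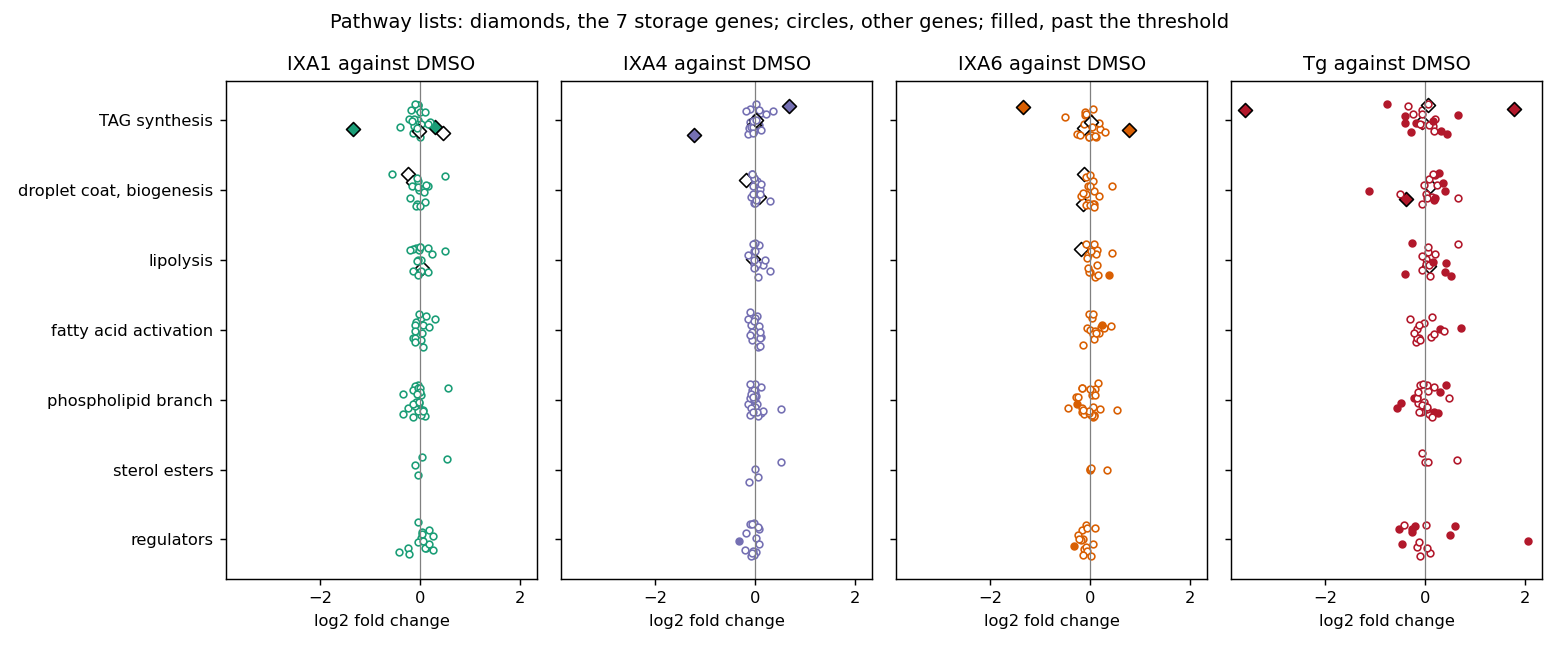
Log2 fold changes against DMSO (x axes) of the pathway lists (rows) with each treatment (panels); diamonds are the 7 genes, circles the other measured genes, filled where an adjusted p is below 0.05, and vertical scatter within a row has no meaning. With the IXA compounds few circles are filled (0, 1 and 4 of 110, beside 2.31%, 0.8% and 2.29% of all genes). With Tg 38 are (beside 35.8% of all genes), with CEBPB at 2.07 and FITM2 at -1.12 farthest out.

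Genes whose changes were most like those of DGAT2 were sought by Euclidean distance over the 4 log2 fold changes against DMSO among 11775 other genes with a mean of at least 2 CPM. The nearest was BCAM, a cell adhesion gene, at a distance of 1.63 (-0.38, -0.65, -0.72 and -2.58 in the order IXA1, IXA4, IXA6, Tg), and COL26A1, a collagen gene, followed at 1.70. Next came TMEM200B (2.10), RUSC1-AS1 (2.17), IFIT1 (2.57) and HSPA2 (2.67). In the order IXA1, IXA4, IXA6, IFIT1 was at -0.33, -0.07 and -0.12 and HSPA2 at -0.20, -0.18 and -0.09. By edgeR's test COL26A1, RUSC1-AS1, IFIT1 and HSPA2 passed with Tg only. TMEM200B passed with IXA6 and Tg, and BCAM with IXA4, IXA6 and Tg. TMEM200B spanned 2.46 to 30.5 CPM within the DMSO group and RUSC1-AS1 1.72 to 17.5 CPM within IXA6, so their values are uncertain. For PLPP5 the nearest were much closer: HSPA13, an ER HSP70-like gene, at 0.25 (0.50, 0.59, 0.56 and 1.75) and EIF2AK3, which encodes the ER stress sensor PERK, at 0.29 (0.65, 0.53, 0.64 and 1.82). HIST2H2BE (0.33), UGDH (0.39), PRSS16 (0.41) and MBNL2 (0.43) followed. The 4 fold changes share the DMSO libraries, so these distances are descriptions. DGAT2 was at place 3 by fall with Tg, on 6 to 17 reads, and a gene with so large a change has few others near it. Its distances are therefore not directly comparable with those of PLPP5.

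The authors' deposited table for each treatment gave log2 fold changes for DGAT2 of -1.33 (IXA1), -1.21 (IXA4), -1.34 (IXA6) and -3.61 (Tg). For PLPP5 the authors' deposited table gave 0.53, 0.68, 0.79 and 1.79 in the same order. In the authors' deposited table the adjusted p of DGAT2 was NA for the 3 IXA compounds, and that of PLPP5 for IXA1 and IXA6.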

How the data were processed

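The authors deposited raw counts per gene symbol for HEK293T cells, made with GRCh37.p13 per the submitters' processing notes; for aligner, counter and strand setting, the labels give nothing. A log2 fold change and a p-value per gene and treatment, from DESeq, were deposited too, per the file headers and the submitters' processing notes, which do not name the reference group. Of 15 columns, 14 matched a sample title. The 1 other, which may or may not be IXA1 replicate 3, was not used, which leaves IXA1 with 2 libraries. The genes, lists and tests were chosen with earlier results of these data known.

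The tests used edgeR 4.0.16 under R 4.3.3, with TMM scaling, the default expression filter (0 genes removed, 13243 tested) and the quasi-likelihood test in a fit of all groups without other covariates. P-values were adjusted by Benjamini-Hochberg over all genes in each of 10 comparisons at 0.05. SE is the log2 fold change over the square root of F. Alternatives were DESeq2 1.42.0, limma-voom (limma 3.58.1), other scaling and filters, a minimum fold of 1.2, the 2 groups alone, a replicate block and each library left out. The test was also run on simulated counts, and nothing is read from that run. The fewest reads of any gene over the 14 libraries is 73. Exon lengths are from GENCODE release 29 (GRCh38), for levels per kilobase only. Named genes are the 7, pathway genes called against DMSO at least 2 times, the 2 largest called changes per list and treatment, family members, and the 6 nearest by distance; the other called members of the triacylglycerol, droplet, lipolysis, phospholipid and regulator lists were named after their values were seen. Older symbols served for TMEM159, EPT1 and SPG20.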

Additional observations from a re-analysis of the deposited data

How the results depend on the processing

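Against DMSO, DGAT2 ran from -1.45 to -1.21 with IXA1, -1.28 to -1.15 with IXA4, -1.42 to -1.28 with IXA6 and -3.99 to -3.28 with Tg on the log2 scale over the alternatives, and PLPP5 from 0.32 to 0.59, 0.59 to 0.77, 0.74 to 0.88 and 1.72 to 1.88. Over 70 values of the 7 genes, 942 alternative values were computed: 902 stayed on their side of the threshold, 38 lost and 2 gained the call, and no called value changed sign, while 26 values that were not called did. These values include the contrasts used in the choice of genes, so they show no stability of those. With a minimum fold of 1.2, 1 of the 7 genes passed with IXA1 and 1 with IXA4, and 13 other pathway genes with Tg and 0 with IXA4 or IXA6; between treatments 0 passed for IXA1 against IXA4 or IXA6, and 2 each for Tg against IXA1 and IXA6. A minimum mean of 5 CPM drops DGAT2 and left 1 of the 7 with each of IXA1, IXA4 and IXA6, with 1 other pathway gene for IXA1 and 0 for IXA4. DESeq2's test gave 1 other pathway gene with IXA1 and 2 with IXA4, limma-voom 0 with IXA4, and the 2 groups alone 4, 2 and 8 with IXA1, IXA4 and IXA6. The cause of these moves was not tested, other than the removal of DGAT2 by the filter.

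Leaving out libraries gave 1 to 1 of the 7 genes with IXA1, since AGPAT1 was lost each time. These gave 0 to 1 other pathway genes with IXA4, 2 to 3 with IXA6, 0 to 1 of the 7 for IXA1 against IXA4, 1 to 2 for IXA1 against IXA6, and 3 to 5 for Tg against IXA1 and against IXA6. The call of SREBF1 with IXA4 was among those lost. Where 1 IXA1 library was left, it was assumed to vary like the other groups.

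Same-numbered libraries of different groups did not deviate together (correlation of deviations from group means -0.148 to 0.112, 1 of 26 pairs over 0.1), so the numbers were not taken to pair the samples. With a replicate block, 0 other pathway genes passed with IXA4 and PLIN3 for Tg against IXA1 had an adjusted p of 0.0787. DGAT2 with Tg rests on 6 to 17 reads per library, which limits the precision of that value.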
